A study of Homo sapiens with 4 samples.

Results

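The ubiquitin-conjugating E2 enzymes were taken as every gene of the count table whose symbol starts with UBE2, which gave 32 of 12912 genes. All 32 are protein-coding in the annotation used, all had enough counts to be tested, and together they lie on 20 chromosomes. They were compared in 786-O, an established clear cell renal carcinoma line that has no functional VHL, between the 786-O-Ctrl subline and 786-O-VHL, in which VHL was restored. VHL was delivered by a retroviral vector that expresses HA-tagged VHL, and the labels name the triple-reporter (TR) form of the line for both groups, which stably carries a vector for GFP, luciferase and thymidine kinase. Cells of both groups grew in RPMI1640 with serum. Each group had 2 RNA-seq libraries, and the sources used here do not say whether these came from separate cultures or whether a subline is 1 clone.

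Ubiquitin is passed along a chain of enzymes. An E1 enzyme activates it, an E2 enzyme carries it on a catalytic cysteine, and an E3 ligase brings the charged E2 to the protein to be modified. The E2 decides in large part which kind of ubiquitin chain is built, and some members carry a ubiquitin-like protein instead, such as SUMO, NEDD8 or ISG15. VHL is itself the substrate receptor of a cullin E3 ligase, whose best known substrates are the HIFα subunits, and that ligase draws on E2 enzymes and on the conjugation of NEDD8 to its cullin.

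Total counts were 22141263 and 15714166 in 786-O-Ctrl, 2807779 in 786-O-VHL replicate 1 and 16114120 in 786-O-VHL replicate 2. The header gives both 786-O-Ctrl columns one and the same name, so these libraries are called deeper and shallower here. Levels are given as CPM, the count over the library total in 1e6 units after TMM scaling. VHL itself was at 42.9 and 43.9 CPM in 786-O-Ctrl and at 178 and 163 CPM in 786-O-VHL. Of the renal markers, PAX8 lay between 137 and 277 CPM and PAX2 between 27.6 and 38.7 CPM over the 4 libraries, and both were lower in 786-O-VHL, as were KRT8 (477 to 769 CPM) and VIM (709 to 1699 CPM). CDH6 was higher in 786-O-VHL (215 to 366 CPM over all libraries, log2 fold change 0.45, edgeR FDR = 0.000144), KRT18 (141 to 162 CPM) was not called, and LHX1 had at most 18 counts. CD14 of leukocytes and PECAM1 of endothelium did not pass 1.02 CPM and COL1A1 and LUM of fibroblasts did not pass 7.12 CPM. In the shallow 786-O-VHL replicate 1, 3 counts make 1.02 CPM. Of the 32 UBE2 genes, 26 had at least 100 counts in every library, and the lowest count was 5, for UBE2V1.

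The E2 genes moved in both directions in 786-O-VHL. UBE2L6, the E2 for ISG15, rose most, and UBE2H, UBE2Q2 and UBE2W followed. UBE2T, the E2 of the Fanconi anemia pathway, fell most, followed by UBE2O, UBE2N and UBE2L3. In all, 8 of the 32 genes (25%) were higher and 10 (31.3%) were lower at an FDR under 0.05, where FDR is the Benjamini-Hochberg adjusted p of edgeR's quasi-likelihood test over all 12335 genes tested. Over all genes tested, 32.6% were higher and 31.9% were lower by the same rule, so that 64.5% were called in either direction against 56.3% of the E2 genes. Changes of more than 2-fold were called for 2 E2 genes (6.25%), UBE2T and UBE2L6, and for 17.5% of all genes. The median log2 fold change, 786-O-VHL over 786-O-Ctrl, was -0.06 over the E2 genes and 0.02 over all genes tested, and the median absolute log2 fold change was 0.34 and 0.43. Scaled by library totals alone, 12 E2 genes were higher and 8 were lower, against 5077 and 3097 of all genes, whose median log2 fold change was then 0.15. The counts of called E2 genes thus lay near or below those of all genes, and what follows describes single members. Counts over the lists of partner genes are likewise to be read against 32.6% higher and 31.9% lower. With 2 libraries against 2, no two-sided exact permutation test can give a p below 0.333, while edgeR borrows the spread of other genes. All p-values measure the spread between these libraries, which may be technical.

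**Figure D1:**
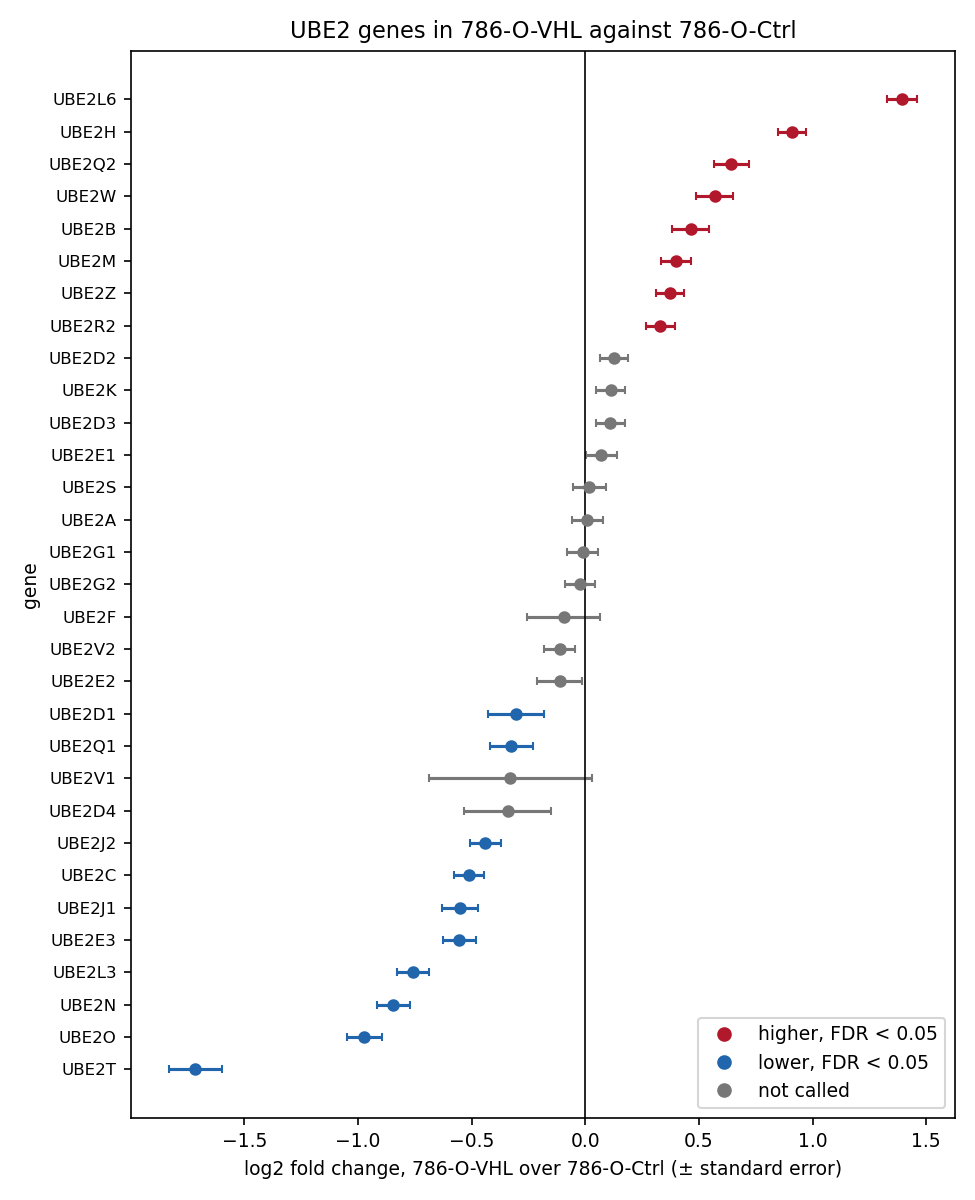
Log2 fold change of 31 of the 32 UBE2 genes, 786-O-VHL over 786-O-Ctrl (x axis), with genes ordered by that value (y axis). Points are edgeR estimates, bars are standard errors, and color gives the call at FDR < 0.05. UBE2T at -1.72 and UBE2L6 at 1.39 stand at the ends, and 13 of the plotted genes were not called.

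UBE2T (ENSG00000077152.11, chromosome 1 of GRCh37 from 202300672 to 202311112, minus strand) works with the ligase FANCL to attach single ubiquitins to FANCD2 and FANCI at stalled replication forks. Its mRNA was at 42.3 and 40.5 CPM in 786-O-Ctrl and at 13.2 and 12.5 CPM in the 786-O-VHL replicates. The groups were far apart compared with the spread inside each. The log2 fold change was -1.72 (standard error, SE, of 0.118, edgeR FDR = 3.82e-13), a level 3.28-fold lower in 786-O-VHL. Genes of the Fanconi core complex and its substrates were lower too. Of 13 measured, 9 (69.2%) were lower and 0 were higher at FDR < 0.05, against 31.9% and 32.6% of all genes, and the median log2 fold change was -0.68 against 0.02 over all genes. Of the 4 uncalled genes, 2 had an unadjusted edgeR p under 0.05, FAAP100 and FANCF, with log2 fold changes of 0.17 and 0.32. Scaled by library totals alone, 8 were lower and 2 higher, and without 786-O-VHL replicate 2, 6 were lower and 0 higher. FANCB, FANCA and FANCI fell most of these, with log2 fold changes of -2.11, -2.01 and -1.40. FANCD2 fell by 1.17 and the ligase subunit FANCL by 0.46 on the log2 scale. These are genes used mostly in dividing cells, and bulk libraries cannot tell a smaller share of cells that express a gene from less RNA of it per cell.

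The promoter of UBE2T is shown because this member fell most, that of UBE2S because it is the cell cycle member that was not called, and that of UBE2L6 because it rose most. RefSeq windows of 300 bases around annotated starts (250 before and 50 after, build GRCh38.p14) were matched by symbol for 25 of the 32 members, 37 windows in all, and UBE2C and UBE2H had no entry. Only the 250 bases before the start are printed, 5′ to 3′ on the strand of the gene, at chr1:202341937-202342186 for UBE2T, chr19:55407789-55408038 for UBE2S and chr11:57567936-57568185 for the upstream of the windows of UBE2L6. Capitals mark matches on either strand to the CHR (TTTGAA) and the CCAAT box (CCAAT), both known from promoters of cell cycle genes, and to the HIF core (ACGTG).
UBE2T: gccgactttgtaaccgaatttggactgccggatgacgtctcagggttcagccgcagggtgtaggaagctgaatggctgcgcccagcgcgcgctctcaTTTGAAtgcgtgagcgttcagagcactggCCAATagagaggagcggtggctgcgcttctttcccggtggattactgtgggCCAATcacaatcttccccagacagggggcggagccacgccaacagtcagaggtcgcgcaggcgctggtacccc
UBE2S: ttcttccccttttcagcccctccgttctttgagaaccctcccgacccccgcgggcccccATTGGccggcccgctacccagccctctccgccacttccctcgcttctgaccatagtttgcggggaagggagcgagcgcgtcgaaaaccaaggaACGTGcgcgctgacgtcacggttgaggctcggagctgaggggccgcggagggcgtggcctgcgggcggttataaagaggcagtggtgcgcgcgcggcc
UBE2L6: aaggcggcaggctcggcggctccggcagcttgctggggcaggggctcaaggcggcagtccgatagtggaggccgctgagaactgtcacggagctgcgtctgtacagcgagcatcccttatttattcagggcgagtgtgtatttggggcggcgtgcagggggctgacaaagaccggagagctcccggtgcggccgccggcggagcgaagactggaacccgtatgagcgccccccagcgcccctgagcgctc

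The window of UBE2T held 1 CHR match and 2 CCAAT matches, that of UBE2S held 1 CCAAT match (read as ATTGG on the printed strand) and 1 HIF core, and neither window of UBE2L6 held any. An ISRE, searched as a pair of GAAA 2 bases apart on either strand, was likewise found in neither window of UBE2L6. Over the 37 windows, 5.41% held the CHR, 27% the CCAAT box, 16.2% the HIF core and 2.7% the ISRE, against 15.2%, 34.6%, 21.4% and 3.57% of all 35116 windows of this length and 10.3%, 34.4%, 24.9% and 2.79% of the 14415 windows of tested genes. These are matches of letters in short windows and say nothing of binding.

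UBE2C and UBE2S serve the anaphase-promoting complex, the E3 ligase that drives exit from mitosis. UBE2C starts ubiquitin chains on its substrates and UBE2S lengthens them. UBE2C (ENSG00000175063.17, chromosome 20 of GRCh37 from 44441215 to 44445596) was at 165 and 167 CPM in 786-O-Ctrl and at 118 and 116 CPM in 786-O-VHL. Both 786-O-VHL libraries lay below both 786-O-Ctrl libraries, with a log2 fold change of -0.51 (SE 0.0653, edgeR FDR = 9.26e-08). UBE2S (ENSG00000108106.14, chromosome 19 from 55911113 to 55919156) was at 351 and 357 CPM in 786-O-Ctrl and at 317 and 388 CPM in replicates 1 and 2 of 786-O-VHL. The 786-O-VHL libraries thus lay on either side of 786-O-Ctrl. The log2 fold change of UBE2S was 0.02 (95% interval from -0.13 to 0.16, edgeR FDR = 0.841), and the direction depended on the library. Without 786-O-VHL replicate 1 it was 0.13 (edgeR FDR = 0.0104), and without replicate 2 it was -0.17 (edgeR FDR = 0.0214). A long noncoding gene shares 675 exon bases with UBE2S on the same strand, so reads there may have been split. Per kb of exon, the ratio of UBE2S to UBE2C was 0.977 and 0.983 in 786-O-Ctrl, against 1.24 and 1.54 in 786-O-VHL, without overlap. That difference was not tested. Of 16 genes of the complex and its activators, 9 were lower and 2 were higher, with a median log2 fold change of -0.25 (5 lower and 3 higher when scaled by library totals alone). ANAPC15, the activator CDC20 and the cullin-like subunit ANAPC2 fell most, with log2 fold changes of -1.07, -0.91 and -0.78, and the small subunits ANAPC13 and ANAPC16 rose, with 0.60 and 0.50.

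UBE2L6 (ENSG00000156587.16, chromosome 11 of GRCh37 from 57319129 to 57335757, minus strand) is the main E2 for ISG15, a ubiquitin-like protein that interferon induces. Its mRNA was at 60.3 and 62.0 CPM in 786-O-Ctrl and at 165 and 159 CPM in 786-O-VHL. The 786-O-VHL libraries were close to each other and well above 786-O-Ctrl, with a log2 fold change of 1.39 (SE 0.0669, edgeR FDR = 1.47e-16) or 2.63-fold. The other genes of ISG15 conjugation were higher as well, 6 of 6 measured and 0 lower at FDR < 0.05, and the median log2 fold change was 0.82 (0.02 over all genes). Without either 786-O-Ctrl library or without 786-O-VHL replicate 2, 5 of the 6 were called. This list was written with earlier results on interferon genes of these libraries known. The ligase HERC5 rose by a log2 fold change of 1.19, ISG15 by 1.02 and TRIM25, itself a target of ISG15, by 0.90. The E1 enzyme UBA7 was at 29.96 and 30.5 CPM in 786-O-Ctrl and at 54.3 and 43.4 CPM in 786-O-VHL. Its log2 fold change was 0.61 (edgeR FDR = 5.78e-06), so mRNA was higher for all 3 steps of the chain to ISG15. USP18, which removes ISG15, had the smallest rise of the 6 (0.41, edgeR FDR = 0.0366). These values are of mRNA only. At the protein level, the paper lists UBE2L6 among those both lower and ubiquitinated in 786-O-VHL, the opposite direction from its mRNA here.

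UBE2L3, the paralog closest to UBE2L6 by name, carries ubiquitin to HECT and RBR ligases such as parkin and the linear chain assembly complex. UBE2L3 was at 163 and 159 CPM in 786-O-Ctrl and at 103 and 91.8 CPM in 786-O-VHL. It went the opposite way from UBE2L6, with a log2 fold change of -0.76 (SE 0.0696, edgeR FDR = 1.72e-10). Per kb of exon, UBE2L6 stood at 0.708 and 0.747 of UBE2L3 in 786-O-Ctrl and at 3.04 and 3.31 of it in 786-O-VHL. The order of the pair was therefore inverted in both 786-O-VHL libraries.

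**Figure D2:**
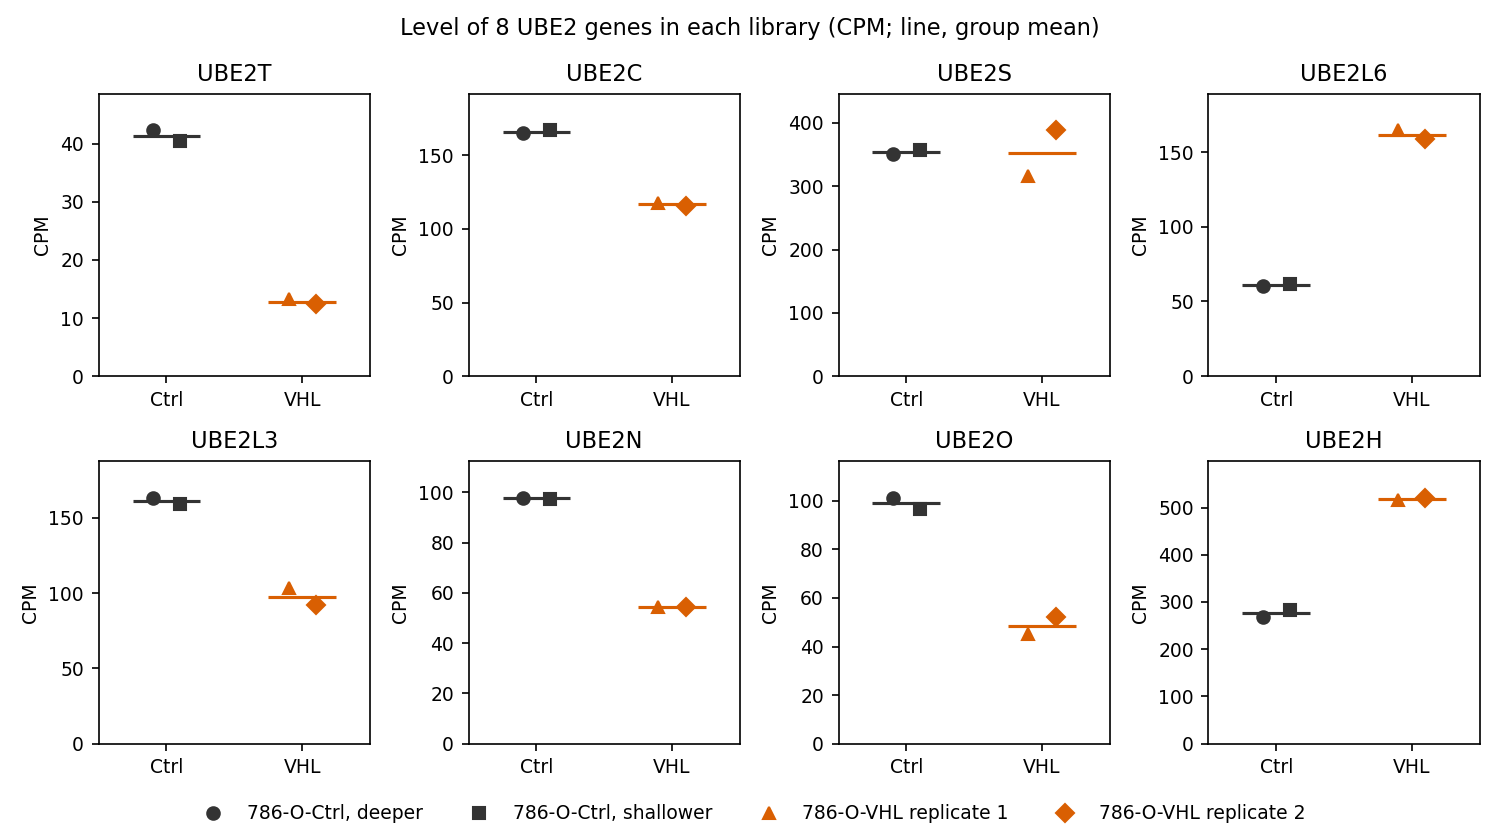
CPM (y axes, each from 0) of 8 UBE2 genes in the 4 libraries, by group (x axes). Each symbol is 1 library and each line is the mean of 2 libraries. The groups do not overlap for 7 of the genes, while the 786-O-VHL libraries of UBE2S, at 317 and 388 CPM, lie on either side of 786-O-Ctrl. Of all 12335 genes tested only 2467 overlapped, so lack of overlap was common.

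UBE2N, the E2 that builds lysine 63 chains in NF-κB signaling and DNA damage tolerance, was at 97.8 and 97.4 CPM in 786-O-Ctrl and at 54.3 CPM in each 786-O-VHL library. Libraries of a group were nearly equal, and the log2 fold change was -0.84 (SE 0.0729, edgeR FDR = 4.88e-11). NUDT4, on the opposite strand, shares 2474 exon bases with UBE2N, and if strand was not used in counting, reads there cannot be told apart. UBE2N acts as a dimer with an inactive E2 variant, UBE2V1 or UBE2V2. UBE2V2 was at 102 and 101 CPM in 786-O-Ctrl and at 97.7 and 92.5 CPM in 786-O-VHL, with a log2 fold change of -0.11 that did not pass the test (95% interval from -0.25 to 0.03, edgeR FDR = 0.15). Per kb of exon the ratio of UBE2V2 to UBE2N was 0.944 and 0.937 in 786-O-Ctrl, against 1.63 and 1.54 in 786-O-VHL. UBE2V1 had only 44, 38, 5 and 31 counts, and 2066 of its 4779 exon bases are shared with the readthrough gene PEDS1-UBE2V1, so its level is uncertain. Its log2 fold change was -0.33 (SE 0.358, edgeR FDR = 0.43).

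UBE2A and UBE2B, the human RAD6 enzymes, ubiquitinate histone H2B with RNF20 and RNF40 and the sliding clamp PCNA with RAD18. UBE2B was at 42.1 and 42.7 CPM in 786-O-Ctrl and at 56.0 and 59.3 CPM in 786-O-VHL, a rise with a log2 fold change of 0.46 (SE 0.0816, edgeR FDR = 1.52e-05). UBE2A stayed between 92.6 and 95.7 CPM in all 4 libraries, with a log2 fold change of 0.01 (95% interval from -0.13 to 0.15, edgeR FDR = 0.928). These closely related paralogs thus had different estimates, whose difference was not tested. Of 10 ligases that work with RAD6 or build lysine 63 chains, 4 were lower and 3 were higher, with a median log2 fold change of -0.12. Without 786-O-VHL replicate 2 these counts were 1 and 1, without the shallower 786-O-Ctrl library 2 and 1, and with library totals alone 2 and 3 with a median of 0.02. RAD18, RNF20 and HLTF fell, by 0.60, 0.38 and 0.23 on the log2 scale, and UBR2, SHPRH and UBR1 rose, with log2 fold changes of 0.70, 0.31 and 0.30.

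The UBE2D and UBE2E enzymes work with a wide range of RING ligases. UBE2D2 and UBE2D3, the more abundant of the UBE2D genes per kb of exon, were not called, with log2 fold changes of 0.13 and 0.11 (edgeR FDR = 0.0835 and 0.13). UBE2D2 was called higher without 786-O-VHL replicate 1 (log2 fold change 0.15, edgeR FDR = 0.00989) and UBE2D3 without replicate 2 (log2 fold change 0.15, edgeR FDR = 0.0435). UBE2D3 was at 282 and 296 CPM in 786-O-Ctrl and at 322 and 304 CPM in 786-O-VHL, a small gap with no overlap. UBE2D1 was at 26.5 and 31.8 CPM in 786-O-Ctrl and at 18.7 and 24.9 CPM in 786-O-VHL, with a log2 fold change of -0.30 (SE 0.124, edgeR FDR = 0.0332). That call was lost without the shallower 786-O-Ctrl library (log2 fold change -0.21) and without 786-O-VHL replicate 1 (-0.22). It was also lost with DESeq2 (DESeq2 adjusted p = 0.105), library totals alone (edgeR FDR = 0.227) and thinning to the shallowest library (edgeR FDR = 0.0653). UBE2D4, at 7.72 to 11.8 CPM, was not called (log2 fold change -0.34, SE 0.191, edgeR FDR = 0.12), and its estimate depended on the library. Without 786-O-VHL replicate 1 its log2 fold change was -0.43 (edgeR FDR = 0.0466), without replicate 2 it was -0.04 (edgeR FDR = 0.928), and without the shallower 786-O-Ctrl library it was -0.15 (edgeR FDR = 0.653).

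Among the UBE2E genes, UBE2E3 fell. It was at 85.7 and 89.1 CPM in 786-O-Ctrl and at 64.1 and 57.9 CPM in 786-O-VHL, with a log2 fold change of -0.55 (SE 0.0747, edgeR FDR = 2.48e-07). UBE2E1 stayed between 78.8 and 83.6 CPM (log2 fold change 0.07, edgeR FDR = 0.384) and UBE2E2 between 31.5 and 42.6 CPM (log2 fold change -0.11, edgeR FDR = 0.324). Neither of these was called.

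Cullin ligases, the class to which the VHL ligase belongs, use E2 enzymes of the UBE2R, UBE2G and UBE2D groups and are switched on by NEDD8, which UBE2M and UBE2F attach. UBE2R2 was at 113 and 115 CPM in 786-O-Ctrl and at 150 and 139 CPM in 786-O-VHL, and rose by a log2 fold change of 0.33 (SE 0.0655, edgeR FDR = 7.3e-05). UBE2M, which acts on cullins bound to RBX1, was at 113 and 117 CPM in 786-O-Ctrl and at 149 and 153 CPM in 786-O-VHL, which gave a log2 fold change of 0.40 (SE 0.0644, edgeR FDR = 4.49e-06). Both genes were higher in each 786-O-VHL library than in each 786-O-Ctrl library. UBE2F, which acts on the cullin bound to RNF7, had 27 to 263 counts and a log2 fold change of -0.10 (95% interval from -0.42 to 0.23, edgeR FDR = 0.616). UBE2G1 stayed between 89.7 and 92.6 CPM (95% interval of the log2 fold change from -0.15 to 0.13, edgeR FDR = 0.895). UBE2K, which builds lysine 48 chains on its own, was at 131 to 146 CPM and was not called (log2 fold change 0.11, edgeR FDR = 0.135), but was higher without 786-O-VHL replicate 1 (log2 fold change 0.14, edgeR FDR = 0.0324).
Of 10 measured genes of NEDD8 conjugation apart from these E2 enzymes, 4 were lower and 2 were higher, with a median log2 fold change of -0.09 (0.04 with library totals alone, and 1 higher without the deeper 786-O-Ctrl library). RBX1, the RING subunit of most cullin ligases, RNF7 and the E1 subunit UBA3 fell most, with log2 fold changes of -0.84, -0.46 and -0.42. DCUN1D3 and DCUN1D4, which help NEDD8 transfer, rose by 0.82 and 0.25. The RING subunit RBX1 and its NEDD8 enzyme UBE2M therefore went in opposite directions.

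UBE2J1, UBE2J2 and UBE2G2 act at the endoplasmic reticulum in the removal of misfolded proteins. UBE2J1 was at 69.0 and 75.9 CPM in 786-O-Ctrl and at 49.5 and 49.2 CPM in 786-O-VHL, with a log2 fold change of -0.55 (SE 0.0793, edgeR FDR = 7.37e-07). UBE2J2 was at 123 and 124 CPM in 786-O-Ctrl and at 96.0 and 88.5 CPM in 786-O-VHL, with a log2 fold change of -0.44 (SE 0.0685, edgeR FDR = 2.47e-06). Both membrane-anchored members thus fell without overlap of the groups. UBE2G2 lay between 122 and 129 CPM in all libraries (95% interval of the log2 fold change from -0.16 to 0.11, edgeR FDR = 0.758). Of 7 measured ligases and partners of this pathway, 2 were higher and 1 was lower, with a median log2 fold change of 0.09, but 0 were called without 786-O-VHL replicate 2, 1 and 0 without either 786-O-Ctrl library, and 6 and 0 with library totals alone. The ligase RNF139 rose, with a log2 fold change of 0.38, and the ligase cofactor SEL1L fell by 0.16 on the log2 scale.

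SUMO, a ubiquitin-like protein, has its own conjugation enzymes. SUMO2 was at 184 and 186 CPM in 786-O-Ctrl and at 99.4 and 90.6 CPM in 786-O-VHL. Of 15 genes of SUMO conjugation and removal, 8 (53.3%) were lower and 2 (13.3%) were higher, against 31.9% and 32.6% of all genes, with a median log2 fold change of -0.24 (without 786-O-VHL replicate 1, 8 and 4, and with library totals alone, 7 and 5). SUMO2, SUMO3 and the ligase PIAS2 fell most, with log2 fold changes of -0.99, -0.94 and -0.66, and the SUMO proteases SENP7 and SENP6 rose, with 0.81 and 0.59.

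UBE2H (ENSG00000186591.12, chromosome 7 of GRCh37 from 129470572 to 129592800, minus strand), the E2 of the CTLH ligase, which is abundant in maturing red blood cells, was at 269 and 282 CPM in 786-O-Ctrl and at 515 and 520 CPM in 786-O-VHL. Its log2 fold change was 0.91 (SE 0.0613, edgeR FDR = 2.6e-13), or 1.88-fold. UBE2H took 7.78% of all counts on UBE2 genes in the deeper 786-O-Ctrl library, about 8% in the shallower one and 13.9% in each 786-O-VHL library. The summed level of the 32 genes was 3458 and 3530 CPM in 786-O-Ctrl and 3696 and 3755 CPM in 786-O-VHL. With TMM scaling, the mean sum was 231 CPM higher in 786-O-VHL, less than the 242 CPM by which the mean of UBE2H alone was higher. This comparison does not hold with library totals alone. The sums were then 3289 and 3380 CPM in 786-O-Ctrl and 3881 and 3924 CPM in 786-O-VHL.
UBE2O, a large enzyme with both E2 and E3 activity that also acts in red cell maturation, went the other way. It was at 101 and 96.6 CPM in 786-O-Ctrl and at 45.1 and 52.1 CPM in 786-O-VHL, with a log2 fold change of -0.97 (SE 0.0769, edgeR FDR = 7.66e-12).

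UBE2W, which adds ubiquitin to the amino terminus of proteins, was at 42.3 and 45.2 CPM in 786-O-Ctrl and at 65.8 and 64.4 CPM in 786-O-VHL, which gave a log2 fold change of 0.57 (SE 0.0801, edgeR FDR = 5e-07). UBE2Q2 was at 47.3 and 43.996 CPM in 786-O-Ctrl and at 72.9 and 70.8 CPM in 786-O-VHL, with a log2 fold change of 0.64 (SE 0.078, edgeR FDR = 3.85e-08). Its paralog UBE2Q1 was at 49.96 and 48.7 CPM in 786-O-Ctrl and at 47.2 and 36.997 CPM in 786-O-VHL. UBE2Q1 was called lower, with a log2 fold change of -0.33 (edgeR FDR = 0.00366), but leaving out 786-O-VHL replicate 2 ended the call, at a log2 fold change of -0.07 (edgeR FDR = 0.678). The call was also lost without the deeper 786-O-Ctrl library (log2 fold change -0.28). DESeq2 did not call UBE2Q1 either (DESeq2 adjusted p = 0.102). Nor was it called with library totals alone (edgeR FDR = 0.0749) or after thinning to the shallowest library (edgeR FDR = 0.0907).

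UBE2Z takes ubiquitin and the ubiquitin-like FAT10 from UBA6 and not from UBA1, the E1 of most other E2 enzymes that carry ubiquitin. UBE2Z was at 217 and 221 CPM in 786-O-Ctrl and at 273 and 290 CPM in 786-O-VHL, which gave a log2 fold change of 0.37 (SE 0.0628, edgeR FDR = 8.09e-06). UBA6 was at 206 and 202 CPM in 786-O-Ctrl and at 120 and 114 CPM in 786-O-VHL, with a log2 fold change of -0.82 (edgeR FDR = 1.36e-11). The E2 was higher and its E1 was lower in each 786-O-VHL library. UBA1 fell further, from 526 and 504 CPM to 241 and 240 CPM, with a log2 fold change of -1.10 (SE 0.0631, edgeR FDR = 7.84e-15). Of 10 E1 genes, 4 were lower and 1, UBA7, was higher, with a median log2 fold change of -0.12 (0.02 with library totals alone, with 3 higher, and 2 higher without 786-O-VHL replicate 1). Of 10 measured genes for ubiquitin and ubiquitin-like proteins, 5 were lower and 1, ISG15, was higher, with a median of -0.31 (4 higher with library totals alone, and 2 without either 786-O-VHL replicate). The ubiquitin gene UBB fell, with a log2 fold change of -0.60 (edgeR FDR = 1.38e-08), while RPS27A, which encodes ubiquitin fused to a ribosomal protein, had a log2 fold change of 0.05 and was not called.

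**Figure D3:**
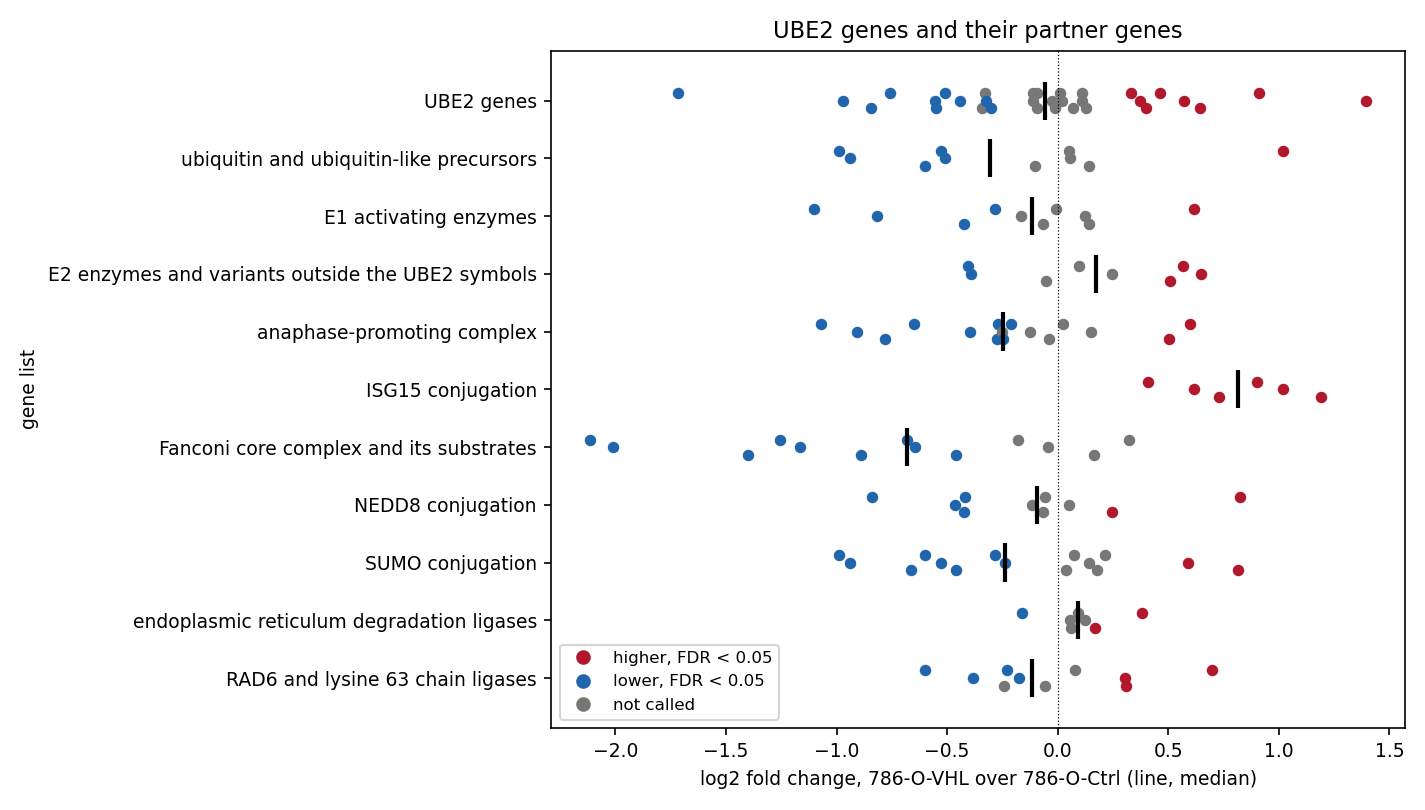
Log2 fold change, 786-O-VHL over 786-O-Ctrl (x axis), of the UBE2 genes and of the genes of 10 lists (y axis). Each point is 1 gene, color gives the call at FDR < 0.05, and vertical lines are medians. All 6 genes of ISG15 conjugation lie above 0, with a median of 0.82, and 9 of 13 Fanconi genes were called lower.

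Apart from the sums of UBE2 genes and the shares of UBE2H in them, levels were set side by side between genes per kb of exon. Those sums and shares are not corrected for exon length. In 786-O-Ctrl, UBE2C and UBE2S stood first, at 129 and 127 CPM per kb, followed by UBE2M at 66.0 and UBE2D2 at 45.7. The leading pair was close, with UBE2C at 128 and 130 and UBE2S at 125 and 128 CPM per kb in the deeper and shallower library, and UBE2C stood slightly above UBE2S in both. In 786-O-VHL the order was UBE2S at 126, UBE2C at 90.8, UBE2M at 86.6, UBE2H at 79.5 and UBE2L6 at 78.3 CPM per kb, the last a gene that ranked 8th in 786-O-Ctrl. UBE2T went from place 15 to place 28 of 32. UBE2F, UBE2D4 and UBE2V1 were the lowest 3 in both groups, between 0.370 and 2.94 CPM per kb. UBE2F shares 688 exon bases with the gene UBE2F-SCLY on the same strand, and UBE2D4 shares 729 with POLR2J4 on the opposite strand. Reads there may have been lost or split, so these low levels are uncertain, as for UBE2V1. Of the 32 members, 13 share exon bases with another gene, 4 of them on the same strand. The exon length used joins the exons of all annotated transcripts, which lowers the value of genes with many of them.

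**Figure D4:**
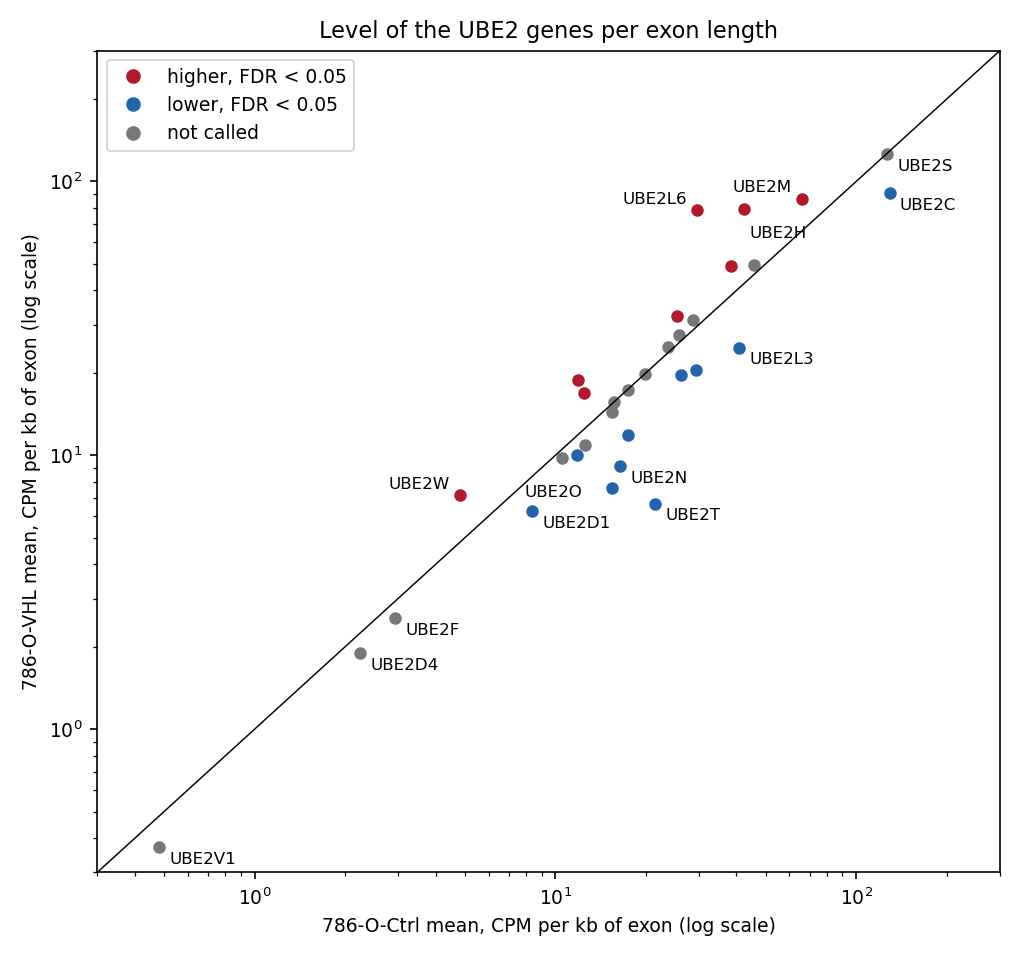
Mean level of each UBE2 gene in 786-O-VHL (y axis) against 786-O-Ctrl (x axis), in CPM per kb of exon on log scales. Points are means of 2 libraries, color gives the call at FDR < 0.05, and the line marks equal levels. UBE2L6 and UBE2H lie above the line and UBE2T furthest below it.

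Both 786-O-VHL libraries lay above both 786-O-Ctrl libraries for 12 of the 32 members and below them for 14, and 6 overlapped. Over all 12335 genes tested these counts were 5029, 4839 and 2467, so lack of overlap was common. Of the 14 members that were not called, 6 overlapped between the groups and 8 did not, and 0 had an unadjusted edgeR p under 0.05. The 95% interval of the log2 fold change lay within 0.5 of no change for 12 of them, the exceptions being UBE2D4 and UBE2V1, both with few counts. A smaller change than these intervals could not be seen with 2 libraries a group.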

How the data were processed

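RNA-seq libraries of 786-O-Ctrl (n = 2) and of 786-O-VHL (n = 2) were grouped by title. The authors prepared TruSeq libraries, aligned reads to hg19 and deposited raw counts per gene, with no normalization. The submitters' processing notes name CASAVA and STAR without versions. Which program counted reads, whether it used strand and on which annotation is not given in the sources used here. Both 786-O-Ctrl columns have 1 name and carry no replicate number of their own.

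The test was that of edgeR 4.0.16, run in R 4.3.3 (filterByExpr with a minimum count of 10, TMM, group as the only term, quasi-likelihood F test, Benjamini-Hochberg over 12335 genes). Standard errors are those implied by F, and 95% intervals use its degrees of freedom. A gene is called at FDR < 0.05. Floors of 3 counts cover counting error only. Genes were handled by Ensembl identifier. Coordinates, exon lengths and overlaps are from GENCODE v44lift37 on GRCh37 and promoters from RefSeq on GRCh38.p14. The scripts were tested on simulated data.

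Alternatives were DESeq2 1.42.0, limma-voom (limma 3.58.1), RLE, library totals, other filters, thinning to 2807779 counts, each library left out and stricter thresholds. Replicates differed by more than sampling noise (chi-square per degree of freedom 2.25 and 2.76). Every UBE2 gene is given except 1 that is not reported here (likewise some partner genes), with values by library for UBE2C, UBE2S, UBE2T, UBE2L6 and at least the 6 largest changes per direction, and at most 3 genes per direction of each list. RPS27A, UBA7, USP18, FANCD2 and FANCL were named after their values were seen. FAAP100, FANCF, ATG3, ATG10 and BIRC6, which were not called, were also named beyond the planned genes. Members, lists and rules were chosen with earlier results of these data known.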

Additional observations from a re-analysis of the deposited data

How the results depend on the processing

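Of the 18 called UBE2 genes, 16 (8 higher and 8 lower) kept their direction and their call under all 11 alternatives that refit the counts, and the exceptions were UBE2D1 and UBE2Q1. Among the 14 uncalled genes, 6 were called under at least 1 alternative. Over the fits without 1 library, 8 to 11 members were higher and 9 to 10 were lower, and 2902 to 4127 of all genes were higher and 3125 to 4082 lower. Leaving out a library of a group leaves 1, which is then taken to vary like the other group. UBE2S reversed without 786-O-VHL replicate 2, at -0.17, and was 0.13 without replicate 1. Scaling by library totals alone moved the median log2 fold change of all genes from 0.02 to 0.15 and gave 12 members higher and 8 lower, so that 40% of the called members were lower against 55.6%. UBE2D2, UBE2D3, UBE2E1 and UBE2K were then called higher, and the summed level of the members was 3289 and 3380 CPM in 786-O-Ctrl and 3881 and 3924 CPM in 786-O-VHL. Past a 4-fold change with FDR < 0.01, 0 members were higher and 0 lower, against 360 and 190 of all genes. Alternatives for the partner lists were added after seeing the data, and their counts stand beside those lists. Thinning and DESeq2 each left 8 members higher and 8 lower. All 32 members are protein-coding, so restricting the sum to such genes changes nothing. No paired analysis was possible because the 786-O-Ctrl columns carry no replicate number of their own. The depth of 786-O-VHL replicate 1 limits UBE2V1, UBE2F and UBE2D4 most.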

Other observations

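Of 8 E2 enzymes and E2-like variants whose symbols do not start with UBE2, 3 (37.5%) were higher and 2 (25%) were lower, near the 32.6% and 31.9% of all genes. CDC34, the paralog of UBE2R2, is an E2 that works with cullin ligases. Its level was 87.5 and 86.6 CPM in 786-O-Ctrl and 117 and 134 CPM in 786-O-VHL. The log2 fold change of CDC34 was 0.56 (SE 0.0696, edgeR FDR = 4.97e-08). CDC34 rose as UBE2R2 did. AKTIP and TSG101, E2-like proteins without the catalytic cysteine, rose with log2 fold changes of 0.65 and 0.51. UEVLD, another such variant, and UFC1, the E2 for UFM1, fell by 0.41 and 0.39 on the log2 scale. The autophagy E2 enzymes ATG3 and ATG10 and the giant enzyme BIRC6 were not called, with log2 fold changes of -0.05, 0.24 and 0.10. The median log2 fold change of all 8 genes was 0.17. Without 786-O-VHL replicate 2 it was 0.13, and the lower calls were lost.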
